A study of Mus musculus with 42 samples.

Results

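Glucocorticoid-induced genes were followed in RNA-seq of 4 hypothalamic nuclei of fed and fasted mice. The set held 33 genes, taken as a list of symbols of known targets of the hormone and matched to Ensembl gene IDs, out of 37907 IDs with a value. All 33 passed the filter on low values, which left 33579 IDs for testing. Gene positions are given on GRCm38 from the GENCODE annotation. The rule used no measured value, but the list was drawn up with earlier results from the same libraries known.

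The mice were adult wild-type C57/BL6 males, and each had either eaten ad libitum or gone without food for 24 hours. From frozen brain sections a laser cut out the paraventricular nucleus (PVN), the arcuate nucleus (ARC), and the dorsomedial (DMH) and ventromedial (VMH) hypothalamus, so each library mixes the neurons, glia and vessels of 1 region. The 42 libraries comprised 5 fed and 5 fasted for the ARC, 6 and 6 for the VMH, 5 and 4 for the DMH, and 6 and 5 for the PVN. By the methods, outlier libraries of the study were excluded by their whole profiles. Whether the 42 are those that remained is not stated, and if so the spread was measured after that step. The labels do not tie libraries to mice, and by the methods the nuclei came from the same brains, so nuclei are not independent of each other and p-values measure the spread between libraries.

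Glucocorticoids, corticosterone in the mouse, are released by the adrenal cortex under the control of Crh neurons of the PVN, and their blood level rises during a fast. In a target cell the hormone binds the glucocorticoid receptor, Nr3c1, which leaves a chaperone complex, enters the cell nucleus and binds DNA at glucocorticoid response elements, palindromes built from the hexamer AGAACA and its reverse complement. The genes it switches on include brakes on the receptor itself, inhibitors of inflammatory and growth signalling, transcription factors that pass the signal on, and enzymes and secreted proteins that move cells from glucose to fat and amino acid use. In the brain, astrocytes and endothelial cells hold much receptor and express several of these genes strongly.

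Promoter sequence was at hand for 28 of the 33 genes, as 41 windows reaching from 250 bases before to 50 bases after an annotated RefSeq start (build GRCm38.p6). Both strands were searched with fixed letters. The full palindrome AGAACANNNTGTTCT occurred in 1 of the 28 genes, Sgk1, and in 3 of all 27025 genes with a window, or 0.0111%. A relaxed form, GNACANNNTGTNC, which the full palindrome also matches, occurred in Sgk1, Fam107a, Txnip and Map3k6, 14.3% of the 28, against 0.537% of all genes. The 4 windows are shown because they hold these palindromes, with the palindromes and any single AGAACA hexamer on either strand in capitals.
Sgk1, chr10:21993640-21993939, plus strand: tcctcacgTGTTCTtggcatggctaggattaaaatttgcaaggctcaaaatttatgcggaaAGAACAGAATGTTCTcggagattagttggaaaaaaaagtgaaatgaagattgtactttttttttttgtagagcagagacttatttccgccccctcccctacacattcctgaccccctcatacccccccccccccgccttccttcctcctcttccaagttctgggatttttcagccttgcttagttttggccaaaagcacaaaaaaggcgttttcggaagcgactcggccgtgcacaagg
Fam107a, chr14:8309730-8310029, minus strand: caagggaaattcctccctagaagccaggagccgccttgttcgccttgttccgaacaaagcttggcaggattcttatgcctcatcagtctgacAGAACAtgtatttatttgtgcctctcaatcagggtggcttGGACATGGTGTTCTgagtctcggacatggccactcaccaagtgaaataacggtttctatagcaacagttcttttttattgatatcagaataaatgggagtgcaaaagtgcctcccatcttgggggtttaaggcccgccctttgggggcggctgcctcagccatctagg
Txnip, chr3:96557707-96558006, plus strand: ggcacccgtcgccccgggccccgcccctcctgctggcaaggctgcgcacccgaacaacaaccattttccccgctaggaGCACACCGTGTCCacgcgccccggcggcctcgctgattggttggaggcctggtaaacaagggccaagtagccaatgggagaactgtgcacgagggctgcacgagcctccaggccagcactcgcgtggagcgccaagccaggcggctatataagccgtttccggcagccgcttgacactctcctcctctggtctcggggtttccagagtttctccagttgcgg
Map3k6, chr4:133240568-133240867, plus strand: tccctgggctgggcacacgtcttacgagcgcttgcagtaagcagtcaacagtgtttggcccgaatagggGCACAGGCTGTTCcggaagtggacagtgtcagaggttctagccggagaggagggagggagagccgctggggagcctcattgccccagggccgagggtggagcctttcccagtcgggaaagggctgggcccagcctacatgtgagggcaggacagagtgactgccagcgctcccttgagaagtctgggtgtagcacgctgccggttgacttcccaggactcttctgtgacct
The palindrome began 189 bases before the start in Sgk1, 118 in Fam107a, 172 in Txnip and 181 in Map3k6. The window shown for Sgk1 is 1 of 6 for that gene, and a second Fam107a window covers nearly the same bases. The single hexamer was in 5 of the 28 genes (17.9%) and in 21.3% of all genes. The FoxO motif GTAAACA was in Klf9 and Txnip (7.14% against 4.05%), and the TGACG core of the cAMP response element in 11 of the 28 (39.3% against 23.0%). Genes with several windows have more room for a match. Per window, the shares were 19.5% against 19.0% for the hexamer, 4.88% against 3.65% for GTAAACA and 26.8% against 20.8% for TGACG. These are letters in short windows, and binding was not measured.

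Deposited values were in RPKM (read number divided by gene length and library depth), and the libraries held an estimated 1.33 M to 13.2 M reads in genes (mean 4.57 M). DMH fasted libraries were deeper (7.38 ± 4.0 M reads, SD, n = 4) than DMH fed ones (3.91 ± 0.862 M, n = 5). The recurring lowest values sort the libraries into 3 sets of 10, 16 and 16, called batches here although the labels name none, and batch 1 had 0 DMH fasted libraries. The methods name 3 batches of 8 brains for laser capture and library preparation. Whether the 3 sets are those batches is not stated. Marker genes of each nucleus summed highest in their own nucleus, for example 4460 to 8500 RPKM for Sim1, Oxt and Avp in PVN libraries against at most 167 elsewhere. Of the DMH markers, Ppp1r17 rose in the PVN from 18.9 to 47.3 RPKM (adjusted p = 0.0345), while Hcrt (1.70 and 1.78) and Npvf (1.82 and 1.43) stayed low in fed and fasted PVN libraries, against 187 and 103 in DMH fed ones. Of the 33 genes, 8 sat at a recurring no-read value in at least 1 library, from Lcn2 in 29 of 42 and Arl4d, Cebpd and Cebpb in 15, 14 and 9 down to Plin4 in 5, Arrdc2 in 4, Map3k6 in 3 and Rasd1 in 2. Zbtb16 and Angptl4 also had an estimated 0 reads in their lowest library, by gene length.

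Most of the glucocorticoid-induced genes were higher in fasted than in fed mice in every nucleus. On the scale of log2(RPKM + 1), which understates changes of genes with low RPKM, the ARC had 24 of 33 higher in fasted mice (72.7%), the VMH 28 (84.8%), the DMH 30 (90.9%) and the PVN 27 (81.8%). Among the 13670 genes tested that had no recurring no-read value, 50.3%, 47.6%, 52.6% and 47.5% were higher. The median change of the 33 genes was 0.36, 0.29, 0.37 and 0.57 in the ARC, VMH, DMH and PVN, and the median of all genes tested was 0.0 in each. Fewer cells of a type and less RNA per cell cannot be told apart in such libraries.

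Few single genes passed the test over all genes. At an adjusted p under 0.1 (limma, Benjamini-Hochberg over all genes tested, used for every adjusted p here), of the 33 genes the ARC had 2 that rose, the VMH 3, the DMH 2 and the PVN 4, and 0 fell, where 0.0387%, 0.0715%, 0.0238% and 0.0536% of all genes tested rose. Fits that used the libraries of 1 nucleus only passed 0, 0, 0 and 2 of the 33 in that order. The share of all genes in those fits is not given here. At an unadjusted limma p under 0.05, 11, 11, 11 and 17 of the 33 were higher and 0 were lower, against 4.23%, 3.75%, 3.99% and 3.0% of all genes. Every fasted library lay above every fed library for 5, 2, 9 and 7 of the 33 genes in the same order, against 0.408%, 0.131%, 0.685% and 0.22% of all genes. For genes without a recurring no-read value this share was 0.819%, 0.278%, 1.31% and 0.49%. By sign alone, 16 of the 33 were higher in all 4 nuclei, 13 in 3 nuclei, and Litaf in none. The 16 made up 48.5%, against 6.1% of all genes tested and 9.03% of genes without a recurring no-read value.

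**Figure D1:**
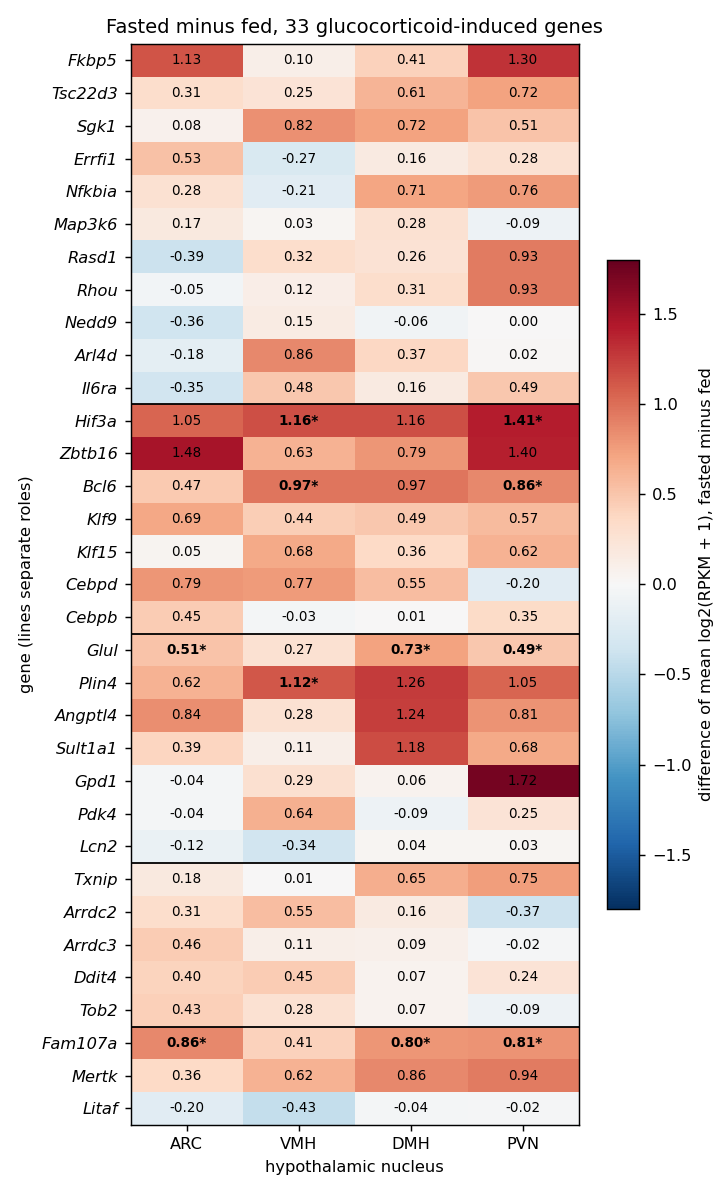
Difference of mean log2(RPKM + 1), fasted minus fed, for the 33 genes (rows, grouped by role with lines between groups) in 4 nuclei (columns); bold values with an asterisk mark an adjusted p under 0.1. Hif3a, Zbtb16, Bcl6, Plin4 and Fam107a are red in all 4 columns, and the highest value is 1.72 for Gpd1 in the PVN.

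**Figure D2:**
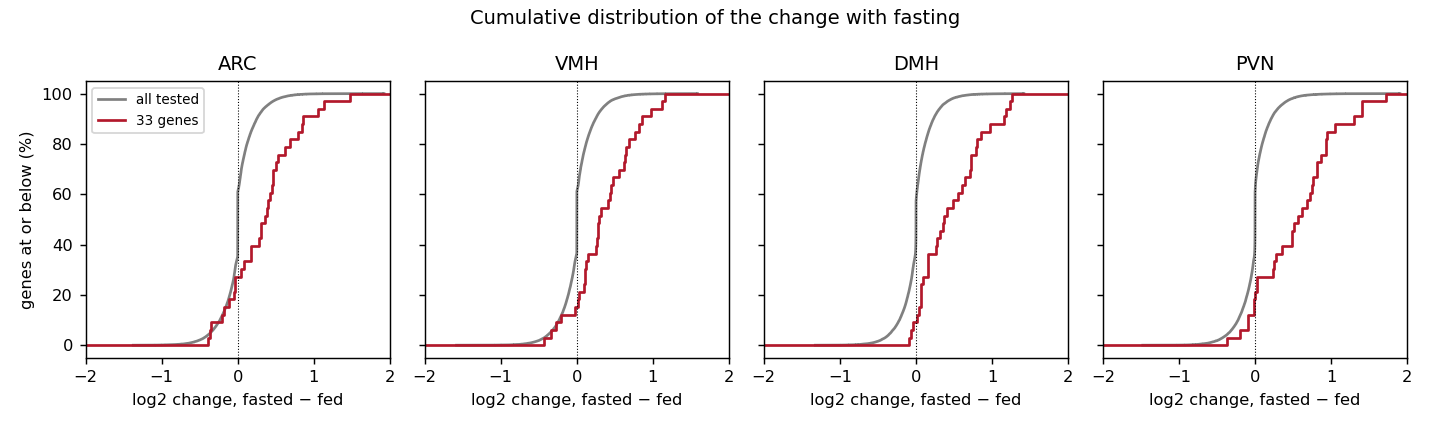
Cumulative share of genes (vertical axis, percent) at or below each log2 change with fasting (horizontal axis) in the 4 nuclei, for the 33 genes in red and all 33579 genes tested in grey. The red curve lies to the right of the grey curve over most of its range, with medians between 0.29 and 0.57 against 0.0.

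The mean over the 33 genes gave each library a single value, set relative to the fed mean of its nucleus. ARC libraries ranged from -0.137 to 0.177 in fed and from 0.229 to 0.515 in fasted mice, and VMH libraries from -0.121 to 0.192 and from 0.237 to 0.495. DMH libraries ranged from -0.083 to 0.099 and from 0.438 to 0.491, and PVN libraries from -0.122 to 0.187 and from 0.396 to 0.776. Fed and fasted libraries did not overlap in any nucleus, and the 4 DMH fasted libraries lay closest together. That group had the fewest libraries, the highest mean depth (7.38 M reads) and 0 libraries of batch 1. The same mean over all genes was not taken for each library, so the lack of overlap has no background here. Within batch 1 the number of genes higher in fasted mice was 20 of 33 (ARC), 17 (VMH) and 19 (PVN), lower than the 24 to 28 in the same nuclei in batches 2 and 3, and it was 26 in both DMH batches. The batch 1 comparisons rest on 1 or 2 libraries a side.

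**Figure D3:**
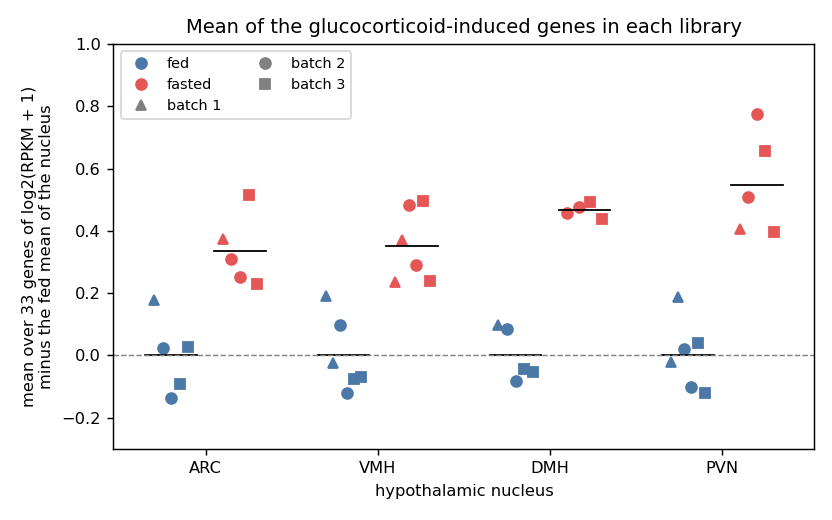
Mean over the 33 genes of log2(RPKM + 1) minus the fed mean of the same nucleus (vertical axis), 1 point per library, in fed (blue) and fasted (red) mice, with symbols for the 3 batches and bars for group means. The lowest fasted library lies above the highest fed library in each of the 4 nuclei.

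The genes were grouped by role from textbook knowledge. Counts for each role have as background the shares over all genes, in the order ARC, VMH, DMH and PVN. Of genes without a recurring no-read value, 50.3%, 47.6%, 52.6% and 47.5% were higher. Of all genes tested, 4.23%, 3.75%, 3.99% and 3.0% were higher at an unadjusted limma p under 0.05. After adjustment, 0.0387%, 0.0715%, 0.0238% and 0.0536% rose. The first group held 11 genes that feed back on the receptor or set signalling. In the ARC, VMH, DMH and PVN 6, 9, 10 and 10 of them were higher, with median changes of 0.08, 0.15, 0.31 and 0.51. At an unadjusted limma p under 0.05, 2, 2, 2 and 5 were higher, and 0 passed after adjustment. The ARC count of 6 of 11 was near its background share. Fkbp5 (ENSMUSG00000024222, chr17:28399094-28517527) encodes a cochaperone that lowers the receptor's affinity for hormone, so that its induction closes a short feedback loop. In the PVN it was at 9.87, 7.13, 7.05, 5.21 and 4.65 RPKM in fasted mice, against a lowest, median and highest value of 1.13, 2.35 and 3.14 in fed mice. ARC values were 6.12, 9.37, 6.76, 8.38 and 4.57 in fasted and 2.03, 6.72, 1.38, 2.04 and 2.51 in fed mice. The PVN groups did not overlap, and the ARC groups overlapped only through fed replicate 2. The log2 changes were 1.30 (SE 0.30, adjusted p = 0.14) in the PVN and 1.13 (SE 0.32, adjusted p = 0.29) in the ARC, so neither passed.

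In the DMH Fkbp5 was at 4.55, 0.645, 2.95 and 3.73 RPKM in fasted and 2.09, 1.84, 2.23, 1.30 and 1.28 in fed mice, with fasted replicate 2 the lowest of all 42 libraries. In the VMH the lowest, median and highest values were 2.16, 4.97 and 9.26 in fasted and 2.54, 4.98 and 7.44 in fed mice, which overlapped almost fully. The changes were 0.41 (SE 0.34) and 0.10 (SE 0.29). The other 10 genes of the group are summarized by their differences between fasted and fed mice. Tsc22d3, the leucine zipper protein GILZ that restrains inflammatory transcription, had log2 differences of 0.31, 0.25, 0.61 and 0.72 in the ARC, VMH, DMH and PVN. Sgk1, a kinase that raises ion channel and transporter activity, had log2 differences of 0.08, 0.82, 0.72 and 0.51, and every DMH fasted library lay above every fed one. Nfkbia, the inhibitor of NF-kB, had log2 differences of 0.28, -0.21, 0.71 and 0.76.

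Rhou, a small GTPase, was higher in the PVN by 0.93 (SE 0.25, adjusted p = 0.318) without overlap of the groups and differed by -0.05 to 0.31 in the other nuclei. Rasd1, a Ras-related G protein first found as dexamethasone-induced, had log2 differences of -0.39, 0.32, 0.26 and 0.93. Errfi1, an inhibitor of the EGF receptor, had log2 differences of 0.53, -0.27, 0.16 and 0.28. Arl4d, another small GTPase, had log2 differences of -0.18, 0.86, 0.37 and 0.02, with 15 libraries at the no-read value, and its VMH difference was 0.44 without fasted replicate 2, which stood at 13.4 RPKM. Map3k6, a kinase, Nedd9, a scaffold of focal adhesions, and Il6ra, the interleukin 6 receptor, stayed between -0.36 and 0.49. None of these passed after adjustment.

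Transcription factors made up 7 of the 33 genes. In the ARC, VMH, DMH and PVN 7, 6, 7 and 6 of them were higher, with median changes of 0.69, 0.68, 0.55 and 0.62, and 0, 2, 0 and 2 passed after adjustment. Hif3a (ENSMUSG00000004328, chr7:17031507-17062427) encodes an oxygen-sensing factor whose short forms oppose HIF-1. In the PVN it was at 5.21, 3.61, 4.34, 4.05 and 2.61 RPKM in fasted mice against a lowest, median and highest value of 0.443, 0.967 and 1.19 in fed mice. Here the groups were far apart, and Hif3a rose by 1.41 (SE 0.28, adjusted p = 0.0374).

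In the VMH Hif3a ranged from 2.10 over a median of 3.99 to 7.90 RPKM in fasted and from 0.529 over 1.34 to 2.89 in fed mice, a change of 1.16 (SE 0.27, adjusted p = 0.0974). ARC values were 3.03, 2.64, 3.62, 5.94 and 2.25 in fasted and 0.441, 0.802, 1.59, 0.834 and 2.31 in fed mice. In the DMH it was at 4.35, 2.55, 8.08 and 3.54 in fasted and 0.886, 2.09, 2.87, 0.913 and 0.722 in fed mice. In these 3 nuclei the groups overlapped slightly, although every fasted library was above the fed mean. The ARC and DMH changes of 1.05 and 1.16 did not pass (adjusted p = 0.288 and 0.262). The VMH call depended on 9 of the 12 VMH libraries and was lost when 1 of them was absent, namely fasted replicates 1, 2, 3 and 5 and fed replicates 2, 3, 4, 5 and 6 (adjusted p from 0.113 to 0.214), and with the inferred batch as a covariate (0.133). Of the 11 alternatives in processing, 2 kept the VMH call, and replicate number as a block within each nucleus was among the losses. The PVN call was lost without fasted replicate 1 or fed replicate 3 or 4 (0.102 to 0.183).

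Bcl6 (ENSMUSG00000022508, chr16:23965052-23988852) is a transcriptional repressor. In the VMH its lowest, median and highest values were 10.9, 13.2 and 20.6 RPKM in fasted and 4.93, 6.85 and 8.17 in fed mice. In the PVN it was at 9.08, 10.6, 10.4, 8.24 and 7.97 in fasted mice, and in fed mice ranged from 2.86 over a median of 5.10 to 6.68. In neither nucleus did the groups overlap. Bcl6 rose by 0.97 (SE 0.18, adjusted p = 0.029) in the VMH and by 0.86 (SE 0.19, adjusted p = 0.0922) in the PVN.

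In the DMH Bcl6 was at 10.5, 8.82, 8.43 and 13 RPKM in fasted and 3.95, 6.31, 3.11, 5.92 and 4.47 in fed mice, again without overlap, a change of 0.97 that did not pass (SE 0.21, adjusted p = 0.129). In the ARC it was at 14.6, 19.1, 12.7, 11.7 and 11 in fasted and 12.4, 10.9, 6.46, 7.54 and 11.7 in fed mice, and these overlapped (0.47, SE 0.20, adjusted p = 0.647). The VMH call was kept without each VMH library in turn and lost when only VMH libraries were fitted (adjusted p = 0.369). The PVN call was lost without fasted replicate 1, 2 or 3 or fed replicate 4, 5 or 6 (adjusted p from 0.14 to 0.261), with the inferred batch as a covariate (0.118) and when only PVN libraries were fitted (0.636). Both the VMH and the PVN call were also lost with replicate number as a block within each nucleus.

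Zbtb16 (ENSMUSG00000066687, chr9:48654297-48836222) encodes PLZF, a zinc finger repressor. In the ARC it was at 11.5, 5.85, 5.13, 8.15 and 3.14 RPKM in fasted and 1.59, 2.70, 0.626, 0.965 and 2.86 in fed mice. In the PVN it was at 16.7, 8.35, 9.03, 6.62 and 3.50 in fasted mice, and fed mice ranged from 1.37 over a median of 2.03 to 5.75. The ARC groups did not overlap, the PVN groups did through fed replicate 3, and fasted replicate 1 was the highest library in both nuclei. The changes of 1.48 (SE 0.39, adjusted p = 0.264) and 1.40 (SE 0.38, adjusted p = 0.30) were large but did not pass.

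In the DMH Zbtb16 was at 4.31, 2.83, 3.88 and 2.48 RPKM in fasted and 3.11, 0.634, 1.70, 0.707 and 2.11 in fed mice, and in the VMH the medians were 1.70 (0.865 to 5.44) and 0.67 (0.15 to 4.11). Both pairs of groups overlapped, with changes of 0.79 and 0.63. Klf9, a Krüppel-like factor with a well known glucocorticoid response, was higher by 0.69, 0.44, 0.49 and 0.57 in the ARC, VMH, DMH and PVN, each at an unadjusted limma p under 0.05 and none past adjustment (lowest adjusted p = 0.238, in the ARC, where the groups did not overlap). Klf15, a factor of amino acid breakdown, had log2 differences of 0.05, 0.68, 0.36 and 0.62. Cebpd had log2 differences of 0.79, 0.77, 0.55 and -0.20 and Cebpb by 0.45, -0.03, 0.01 and 0.35. Both belong to the C/EBP family and had medians of 2 and 3 estimated reads a library, and they share 13.7% and 18.1% of their exon sequence stretches with other genes, so their values are uncertain.

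Genes of metabolism and transport numbered 7, and 4, 6, 6 and 7 of them were higher in the ARC, VMH, DMH and PVN, with 1 called in each. Glul (ENSMUSG00000026473, chr1:153899944-153909723) encodes glutamine synthetase, the astrocyte enzyme that turns glutamate into glutamine, and was the most abundant of the 33 genes in RPKM. In the DMH it was at 381, 410, 324 and 364 RPKM in fasted and 203, 249, 222, 219 and 219 in fed mice. The groups were far apart, and Glul rose by 0.73 (SE 0.11, adjusted p = 0.00136). ARC values of Glul were 250, 248, 228, 268 and 192 in fasted and 193, 162, 144, 163 and 166 in fed mice, and rose by 0.51 (SE 0.10, adjusted p = 0.0502).

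In the PVN Glul was at 275, 250, 328, 284 and 305 RPKM in fasted mice, with 171, 200 and 273 as lowest, median and highest value in fed mice, and rose by 0.49 (SE 0.10, adjusted p = 0.0349). In the VMH the lowest, median and highest values were 323, 352 and 402 in fasted and 275, 279 and 358 in fed mice, a change of 0.27 that did not pass (SE 0.09, adjusted p = 0.391). The overlap in the ARC was between fasted replicate 5 and fed replicate 1, that in the PVN came from fed replicate 5, and that in the VMH from fed replicate 1. The DMH call was kept without each DMH library in turn but was lost when only DMH libraries were fitted (adjusted p = 0.207). The ARC call was lost without fasted replicate 1 or 4 or fed replicate 2, 3 or 4 (adjusted p from 0.104 to 0.141), and the PVN call without fasted replicate 3 or fed replicate 4 (0.116 to 0.124). Fits of 1 nucleus also lost both (0.594 and 0.695), and so did replicate number as a block within each nucleus. Glul shares 12.6% of its exon sequence stretches with other genes, chiefly a pseudogene copy, so its level is uncertain to that extent.

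Astrocyte markers are set beside Glul because astrocytes are its main source in brain. The sum of 7 markers (Aqp4, Gfap, Aldh1l1, Slc1a3, Slc1a2, Gja1 and Aldoc) ranged from 407 to 517 RPKM in DMH fed and from 485 to 552 in DMH fasted libraries. It ranged from 360 to 412 and 355 to 427 in the ARC, from 456 to 682 and 445 to 528 in the VMH, and from 356 to 438 and 347 to 451 in the PVN. The ranges overlapped in all 4 nuclei, and 0 of the 7 rose after adjustment in any of them. In the DMH the median sum was 469 in fed and 534 in fasted libraries, and Aldoc, the aldolase of astrocytes, went from 199 to 269 RPKM (0.44, SE 0.13, adjusted p = 0.388), with all 4 fasted libraries above the fed mean, while the other 6 markers lay between -0.33 and 0.10. The part of this in the Glul values was not tested. Aqp4, the water channel of astrocyte endfeet, fell in the VMH by 0.94 on the log2 scale (SE 0.19, adjusted p = 0.0477).

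Plin4 (ENSMUSG00000002831, chr17:56100591-56109803) encodes a perilipin that coats nascent lipid droplets. In the VMH its lowest, median and highest values were 0.945, 2.83 and 4.87 RPKM in fasted and 0.487, 0.607 and 0.962 in fed mice. In the DMH it was at 2.90, 2.36, 2.56 and 1.01 in fasted and 0.443, 0.283, 0.202, 0.398 and 0.175 in fed mice. The VMH groups overlapped in 1 library and the DMH groups were apart. Plin4 rose by 1.12 (SE 0.23, adjusted p = 0.0555) in the VMH, and its DMH change of 1.26 did not pass (SE 0.27, adjusted p = 0.137).

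In the PVN Plin4 was at 3.02, 2.20, 0.579, 2.02 and 1.24 RPKM in fasted mice and between 0.194 and 0.543, with a median of 0.235, in fed mice, a change of 1.05 (SE 0.25, adjusted p = 0.14) without overlap. ARC values of Plin4 were 0.431, 2.37, 0.363, 1.70 and 0.505 in fasted and 0.459, 0.202, 0.245, 0.175 and 0.211 in fed mice, with only 2 fasted libraries well above the rest (0.62, SE 0.26, adjusted p = 0.647). The VMH call was lost without fasted replicate 3 or 5 or fed replicate 1, 2 or 4 (adjusted p from 0.105 to 0.121) and when only VMH libraries were fitted (0.798). It was also lost with replicate number as a block within each nucleus. The gene is covered thinly, with a median of 8 estimated reads a library.

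Angptl4 (ENSMUSG00000002289, chr17:33773750-33781830) encodes a secreted inhibitor of lipoprotein lipase that is known to rise in fasted fat and liver. In the DMH it was at 4.68, 2.93, 2.66 and 3.52 RPKM in fasted and 0.548, 1.08, 1.49, 0.509 and 0.833 in fed mice. ARC values of Angptl4 were 4.67, 1.22, 1.45, 1.71 and 1.69 in fasted and 1.07, 0.44, 0.317, 0.918 and 0.606 in fed mice. Neither nucleus showed overlap, and the changes of 1.24 (SE 0.29) and 0.84 (SE 0.27) did not pass (adjusted p = 0.154 and 0.445).

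In the PVN Angptl4 was at 4.21, 5.23, 5.05, 2.73 and 3.71 RPKM in fasted mice against 0.666, 1.97 and 2.91 as lowest, median and highest value in fed mice, a change of 0.81 (SE 0.26). In the VMH these 3 values were 0.829, 2.52 and 3.39 in fasted and 0.913, 1.28 and 4.43 in fed mice, a change of 0.28 (SE 0.25) with broad overlap. Gpd1, the cytosolic glycerol 3-phosphate dehydrogenase that makes the backbone of triglyceride, is singled out after its values were seen because its PVN change was the highest of the 33 genes in any nucleus. There it was at 8.06, 8.67, 8.34, 9.65 and 4.63 RPKM in fasted and 3.52, 1.34, 1.17, 1.78, 1.09 and 1.54 in fed mice, without overlap (1.72, SE 0.39, adjusted p = 0.128). In the ARC, VMH and DMH its changes were -0.04, 0.29 and 0.06, and an overlapping gene shares 9.65% of its exon sequence stretches.

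Sult1a1, a sulfotransferase of phenols, had log2 differences of 0.39, 0.11, 1.18 and 0.68 in the ARC, VMH, DMH and PVN, with no overlap in the DMH. Pdk4, the kinase that shuts pyruvate out of the citrate cycle, had log2 differences of -0.04, 0.64, -0.09 and 0.25. Lcn2, a secreted lipocalin of inflammation, was measured too poorly to follow, with 29 of 42 libraries at the no-read value and changes between -0.34 and 0.04. None of the 3 passed after adjustment.

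The next group held 5 arrestin-domain and growth-restraining genes. In the ARC, VMH, DMH and PVN 5, 5, 5 and 2 of them were higher, with median changes of 0.40, 0.28, 0.09 and -0.02, and 0 passed after adjustment. Txnip, an arrestin-domain protein that blocks glucose uptake and binds thioredoxin, had log2 differences of 0.18, 0.01, 0.65 and 0.75. In the ARC fed replicate 1 stood at 20.5 RPKM, with the other fed libraries at 1.72 to 4.17, and without it the ARC difference was 0.68. The gene shares 15.7% of its exon sequence stretches with another gene and is uncertain. Ddit4, the mTORC1 inhibitor REDD1, had log2 differences of 0.40, 0.45, 0.07 and 0.24. Arrdc2, Arrdc3 and Tob2, the last an antiproliferative protein, stayed between -0.37 and 0.55. The lowest of these, Arrdc2 in the PVN, rested on fed replicate 1 at 16.6 RPKM, without which it was 0.15.

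The remaining 3 genes, Fam107a, Mertk and Litaf, fell outside these roles. Fam107a (ENSMUSG00000021750, chr14:8296274-8318023) encodes an actin-binding protein, also named DRR1, that is known as stress-induced in brain and is strongly expressed in astrocytes. In the ARC it was at 92.9, 93.4, 82.4, 112 and 81.1 RPKM in fasted and 47.2, 58.8, 33.8, 61.0 and 55.3 in fed mice. In the DMH it was at 69.1, 70.9, 70.3 and 51.2 in fasted and 38.8, 42.4, 35.0, 29.5 and 39.1 in fed mice. In the PVN it was at 83.6, 71.9, 78.4, 89.5 and 68.7 in fasted mice, against a lowest, median and highest value of 38.7, 45.7 and 48.0 in fed mice. Fasted libraries lay above fed ones without exception in all 3 nuclei.

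Fam107a rose by 0.86 (SE 0.12, adjusted p = 0.000651) in the ARC, by 0.80 (SE 0.13, adjusted p = 0.00391) in the DMH and by 0.81 (SE 0.12, adjusted p = 0.000437) in the PVN. In the VMH its lowest, median and highest values were 67.3, 76.5 and 91.4 RPKM in fasted and 51.1, 58.9 and 62.3 in fed mice, also without overlap, a change of 0.41 that did not pass (SE 0.11, adjusted p = 0.21). It was the only one of the 33 genes whose groups were apart in all 4 nuclei. The 3 calls were kept in each fit that left out 1 library, those of the ARC and DMH were lost when only the libraries of that nucleus were fitted (adjusted p = 0.59 and 0.492), and the within-batch changes were 0.70 to 0.96 (ARC), 0.26 to 0.50 (VMH), 0.80 to 0.84 (DMH) and 0.82 to 0.84 (PVN). The astrocyte marker sums given beside Glul apply here too.

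Mertk (ENSMUSG00000014361, chr2:128698956-128802894) encodes a receptor tyrosine kinase with which astrocytes and microglia engulf debris and synapses. In the PVN it was at 14.3, 17.3, 9.97, 12.4 and 8.60 RPKM in fasted mice and ranged from 3.39 over a median of 6.18 to 9.18 in fed mice. In the DMH it was at 9.26, 7.02, 10.2 and 10.3 in fasted and 4.56, 3.97, 6.12, 3.89 and 4.50 in fed mice. The DMH groups were apart and the PVN groups overlapped in 1 fasted library, with changes of 0.86 (SE 0.29, adjusted p = 0.556) and 0.94 (SE 0.26, adjusted p = 0.353).

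In the VMH Mertk ranged from 5.83 over a median of 8.93 to 10.1 RPKM in fasted and from 2.67 over 4.53 to 10.3 in fed mice, and in the ARC it was at 9.88, 6.10, 3.52, 5.81 and 4.91 in fasted and 2.11, 4.67, 3.54, 6.70 and 5.55 in fed mice. Both overlapped, with changes of 0.62 and 0.36. Microglial markers (Cx3cr1, P2ry12, Csf1r, C1qa, C1qb, Tmem119 and Aif1) were lower in fasted libraries for 6, 4, 6 and 7 of 7 in the ARC, VMH, DMH and PVN, with 0 called. The 7 astrocyte markers, whose sums are given beside Glul, were lower for 2, 5, 4 and 5. Of the 13670 genes without a recurring no-read value, 6793, 7159, 6481 and 7180 were lower. The part of either cell type in the Mertk values was not tested. Litaf, a late endosomal protein induced by lipopolysaccharide, was the only one of the 33 lower in all 4 nuclei on the log2 scale. Its differences were -0.20, -0.43, -0.04 and -0.02, none of which passed, and its ARC value was 0.07 without fasted replicate 3. In fits without 1 library it ranged from -0.35 to 0.13 in the DMH and from -0.24 to 0.14 in the PVN. Only the VMH sign held in all such fits (-0.60 to -0.25).

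**Figure D4:**
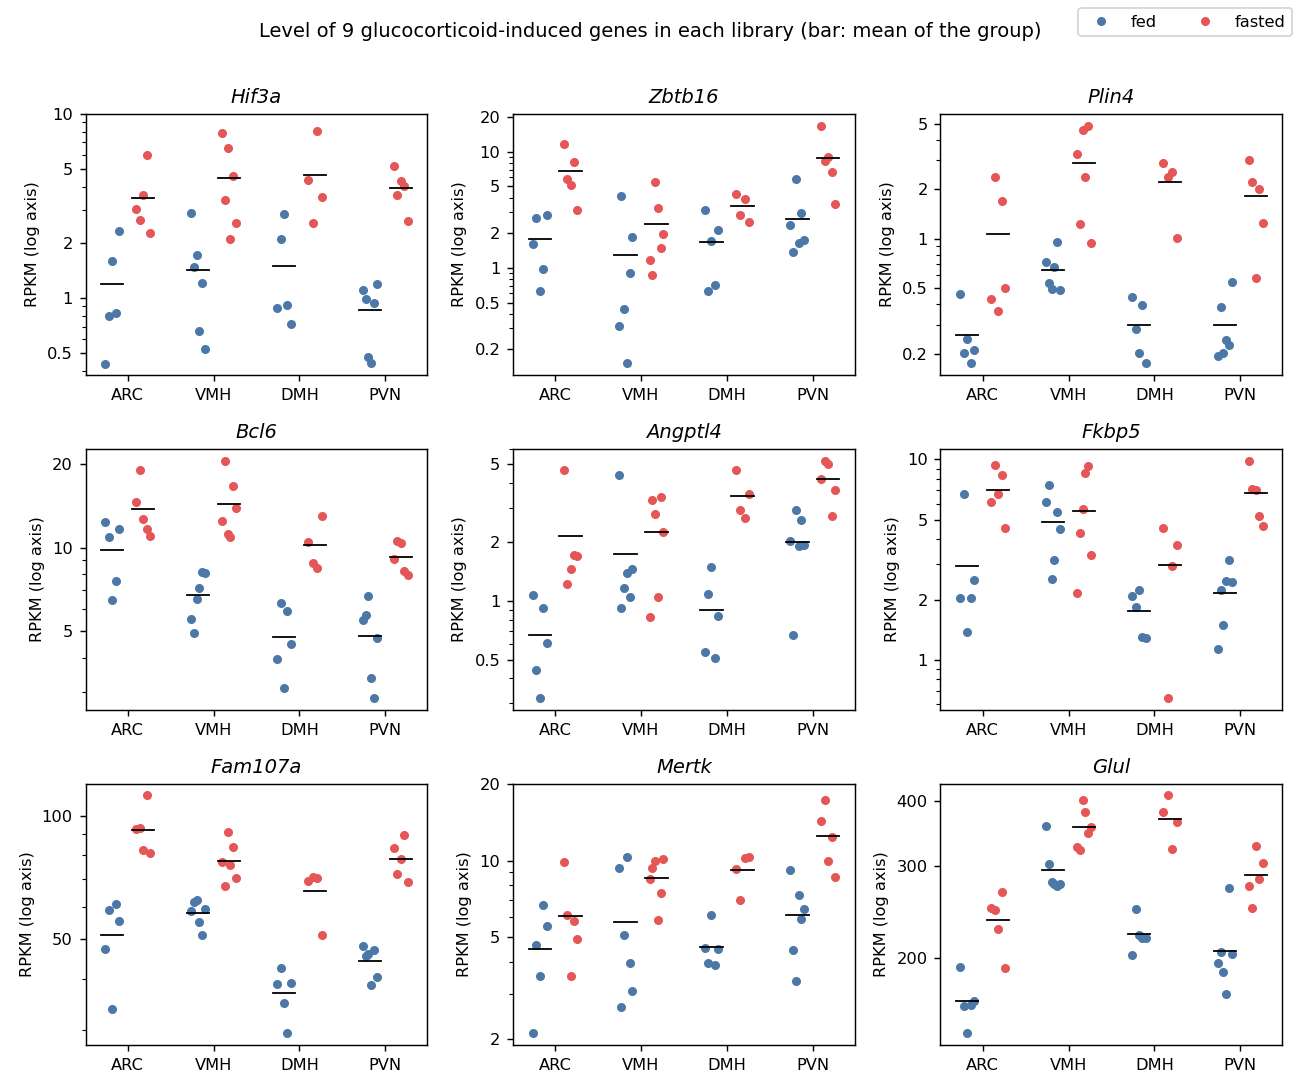
RPKM (log axes) of the 9 genes described library by library, in fed (blue) and fasted (red) mice of 4 nuclei, 1 point per library with bars for group means. Fam107a is apart in all 4 nuclei and Bcl6 in 3, and Fkbp5 in the VMH shows full overlap.

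The next comparison asked whether nuclei of fed mice differ in the level of these genes. With a moderated F test in limma, 7 of the 33 differed at an adjusted p under 0.1, and 12.4% of all genes tested did so. Glul was highest in the VMH (295 ± 32.5 RPKM, SD, n = 6), followed by the DMH (222 ± 16.9, n = 5), the PVN (206 ± 34.9, n = 6) and the ARC (166 ± 17.7, n = 5), with an adjusted p of 3.94e-07. Of the neighbours in that order, the DMH and PVN did not differ beyond their spread (adjusted p = 0.804), while VMH and DMH (0.00789) and PVN and ARC (0.0809) did.

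Fam107a stood at 58.0 ± 4.22 RPKM in the VMH, 51.2 ± 11.1 in the ARC, 44.2 ± 3.78 in the PVN and 37.0 ± 4.91 in the DMH (adjusted p = 0.000722), and no neighbours in that order differed beyond their spread, while VMH and DMH did (adjusted p = 0.00028). Mean levels of Bcl6 were 9.80 ± 2.64 RPKM (ARC), 6.73 ± 1.32 (VMH), 4.81 ± 1.46 (PVN) and 4.75 ± 1.34 (DMH) (adjusted p = 0.00146), with ARC above PVN (0.00209) and DMH (0.00574). Fkbp5 was highest in the VMH at 4.88 ± 1.85 and lowest in the DMH at 1.75 ± 0.443 (adjusted p = 0.0667 over the nuclei and 0.0418 for this pair). Rhou, Litaf and Angptl4 passed at 0.0538, 0.0885 and 0.092, the first 2 highest in the VMH and the last in the PVN. The other 26 did not pass.

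**Figure D5:**
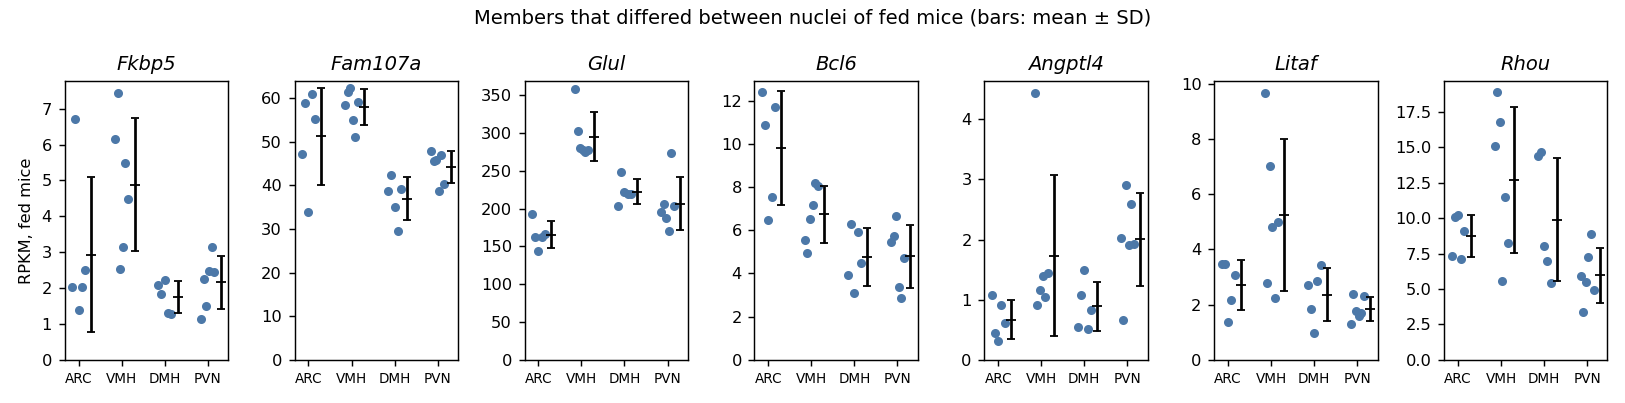
RPKM in fed mice (vertical axes from 0) of the 7 genes that differed between nuclei, 1 point per library with mean ± SD beside the points, for the ARC, VMH, DMH and PVN (n = 5, 6, 5 and 6). Glul, Fam107a, Fkbp5, Litaf and Rhou have their highest mean in the VMH, Bcl6 in the ARC and Angptl4 in the PVN.

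Whether the fasting response itself differed between nuclei was tested as an interaction. By the moderated F test in limma 0 of the 33 genes passed at an adjusted p under 0.1, and 0.00596% of all genes did. Before adjustment 4 of the 33 lay under 0.05, against 4.39% of all genes. These were Gpd1, Glul, Fkbp5 and Fam107a, with unadjusted limma p-values of 0.0128, 0.0235, 0.0239 and 0.0288 and an adjusted p of 1.0 each. For Gpd1 the PVN change exceeded that of the ARC by 1.75 (SE 0.57), for Fkbp5 the PVN change exceeded that of the VMH by 1.20 (SE 0.42), and for Glul the DMH change exceeded that of the VMH by 0.46 (SE 0.14), none of which passed after adjustment. The lack of a call in a nucleus where another nucleus has one is therefore not shown to be a difference between nuclei.

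The genes that bring glucocorticoids to their receptor were followed as a list of 18 (receptors, steroid-activating enzymes, chaperones and coregulators). Of these, 8, 7, 7 and 7 were higher in fasted mice in the ARC, VMH, DMH and PVN, and the median change was -0.12, -0.07, -0.14 and -0.09. The share higher among genes without a recurring no-read value was 50.3%, 47.6%, 52.6% and 47.5%. The counts lay somewhat under it, and the list was not tested as a set. At an adjusted p under 0.1, 1, 0, 0 and 2 of the 18 fell, against 6, 20, 0 and 6 of all 33579 genes tested. Hsp90aa1, the inducible form of the chaperone that holds the receptor ready for hormone, fell in the ARC from 212 to 161 RPKM (-0.41, SE 0.08, adjusted p = 0.0361) and in the PVN from 187 to 134 (-0.47, SE 0.07, adjusted p = 0.00166). Dnaja1, also a chaperone gene of this list, fell in the PVN (-0.45, SE 0.10, adjusted p = 0.0922). The receptor Nr3c1 had log2 differences of 0.09, -0.01, -0.21 and -0.44, the last from 23.6 to 17.2 RPKM in the PVN, where it did not pass (SE 0.15, adjusted p = 0.627). Chaperone genes have close copies in the genome, so reads may be split between them and their values are uncertain. The mineralocorticoid receptor Nr3c2 had log2 differences between -0.21 and 0.11, and Hsd11b1, which regenerates active corticosterone inside cells, between -0.14 and 0.30.

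A second list held 14 further glucocorticoid-induced genes outside the 33. In the ARC, VMH, DMH and PVN 14, 8, 12 and 11 of them were higher, with median changes of 0.60, 0.14, 0.29 and 0.38. Among genes without a recurring no-read value, 50.3%, 47.6%, 52.6% and 47.5% were higher, and the VMH count was near that share. The list was drawn up with earlier results of these data known, so it is not independent support. At an adjusted p under 0.1, 2, 3, 2 and 1 of the 14 rose, against 0.0387%, 0.0715%, 0.0238% and 0.0536% of all genes tested. Those that rose were Mt2 in the ARC, VMH and DMH (1.09, 1.10 and 1.40), Mt1 in the DMH (1.23), both metallothioneins that bind zinc, the cell cycle inhibitor Cdkn1a in the ARC, VMH and PVN (1.92, 1.58 and 1.81), and the lysolipid transporter Mfsd2a in the VMH (1.27).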

How the data were processed

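RNA from the laser-captured nuclei was amplified from small input with a kit that does not keep strand and was sequenced, and per the submitters' notes the reads were handled with CASAVA 1.7, TopHat2 2.0.11, Cufflinks 2.2.1, edgeR and limma on GRCm38. The deposited values are RPKM per Ensembl gene ID as the authors computed them, and none is exactly 0. The values show a prior count of 5 reads on average (1.46 to 14.5 by library), recovered from lowest values that recur across libraries. With it, 97.8% to 98.9% of the low values in a library (under 20 reads) came out as whole reads, within 0.05 reads. The same lowest values gave the 3 batches and the depths, and whether the authors adjusted for batch is not given in the sources used here.

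Genes with RPKM of at least 1 in at least 4 libraries were tested with limma 3.58.1 in R 4.3.3 on log2(RPKM + 1). The model held a mean for each of the 8 groups over all 42 libraries, with a trended prior, two-sided tests, no covariate, and Benjamini-Hochberg adjustment over all genes tested, with a threshold of 0.1. Tables were made in Python 3.11.15 with pandas 2.3.3. The fit was first tested on simulated data.

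A gene was described library by library if it passed in a fasting contrast or in the interaction, or if its 4 changes had 1 sign and their mean was among the 8 largest. Listed genes outside the 33 were named if they passed, with Nr3c1, Nr3c2, Hsd11b1 and Crh named in any case. The members, lists, roles and tests were chosen with earlier results of these data known. Alternatives were another pseudocount or none, no filter or a filter at 5 RPKM, quantile normalization, batch or depth as a covariate, array weights, 2 forms of replicate block, fits of each nucleus alone, and fits without each library. Promoters were read from RefSeq windows, and 5 of the 33 genes (Zbtb16, Cebpd, Angptl4, Gpd1 and Rasd1) were not in that table. No genome sequence or protein was used here.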

Additional observations from a re-analysis of the deposited data

Results flagged for a closer look

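Of 72 groups examined for the 9 genes described library by library, 8 held a library far from the rest of its group. A rate of 1 in 20 groups would give 3.6. The genes share the same libraries, so 8 against 3.6 is not a test of chance. Among fed libraries, ARC replicate 2 had Fkbp5 at 6.723 RPKM (the others 1.38 to 2.51), and PVN replicate 3 had Zbtb16 at 5.751 (1.37 to 2.94). Glul was at 357.9 in VMH fed replicate 1 (275 to 303) and at 272.5 in PVN fed replicate 5 (171 to 206). VMH fed replicate 1, with an estimated 2.02 M reads, also had the high Angptl4 value of 4.429 (0.913 to 1.45). In ARC fed replicate 1 Plin4 was at 0.4594 (0.175 to 0.245), and in ARC fasted replicate 1 Angptl4 was at 4.674 (1.22 to 1.71). Fam107a was at 51.24 in DMH fasted replicate 4 (69.1 to 70.9), the deepest library with 13.2 M reads, which still lay above every DMH fed library. In 4 of the 8 cases the library belonged to batch 1. The causes were not tested.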

How the results depend on the processing

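Of the 33 genes, 2, 3, 2 and 4 rose in the ARC, VMH, DMH and PVN, 7 differed between nuclei of fed mice and 0 in the interaction. Counts moved by over 1.5 times in these cases. With a replicate block within each nucleus they were 1 (ARC), 0 (VMH), 2 (PVN) and 1 (nuclei of fed mice), and with array weights 5 in the DMH and 10 in the PVN. Fits of 1 nucleus gave 0 in the ARC, VMH and DMH and 2 in the PVN. These counts are not set beside the share of all genes under the same setting, so they show only how the calls moved. Without each library in turn the counts ran from 1 to 2 (ARC), 1 to 3 (VMH), 2 to 4 (DMH), 1 to 6 (PVN) and 4 to 9 (nuclei of fed mice) and stayed at 0 in the interaction. The count moved by over 1.5 times without ARC fasted replicate 1 or 4 or fed replicate 2, 3 or 4 (1), VMH fasted replicate 3 or 5 or fed replicate 2 or 4 (1), DMH fasted replicate 3 or VMH fasted replicate 2 (4 in the DMH), PVN fasted replicate 1 (2) or fed replicate 4 (1), and, between fed nuclei, PVN fed replicate 3 or VMH fed replicate 6 (4). Of 238 alternatives of the 11 calls, 0 reversed and 53 lost the call, 30 of 118 that left out a library and 23 of 120 others. The Hif3a call in the VMH was the least stable, lost in 9 of its 11 other alternatives. Same-numbered fed and fasted libraries of a nucleus did not deviate together (correlations from -0.11 to 0.0509 over 20 pairs), and 4 of 40 libraries correlated best with their own number, so the numbers were not taken as pairs. The causes were not tested. Depth limits the genes near their no-read value, Lcn2, Arl4d, Cebpd, Cebpb and Plin4 above all.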

Other observations

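Peptides and receptors of the stress axis formed a list of 10 genes, most of them upstream of glucocorticoid release. In the ARC, VMH, DMH and PVN 5, 6, 5 and 7 of them were higher, the median changes were 0.02, 0.02, -0.02 and 0.11, and 0 passed after adjustment. Among genes without a recurring no-read value, 50.3%, 47.6%, 52.6% and 47.5% were higher, and the ARC, VMH and DMH counts were near that share. Of all genes tested, 0.0387%, 0.0715%, 0.0238% and 0.0536% rose at an adjusted p under 0.1. Crh, the releasing hormone that starts the axis, was at 19.8 RPKM in fed and 22.3 in fasted PVN libraries (0.17, SE 0.18, adjusted p = 1.0) and at 2.39 and 4.75 in the DMH (0.83, SE 0.20, adjusted p = 0.162). Its differences were 0.17 in the ARC and 0.02 in the VMH. Single members went both ways. Ucn3, urocortin 3, was at 19.5 RPKM in fed and 38.8 in fasted PVN libraries (1.11, SE 0.41, adjusted p = 0.706), and Avp, vasopressin, at 25.3 and 11.1 in the ARC (-1.02, SE 0.36, adjusted p = 0.545). Both are named after their values were seen.

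Cell type markers were followed beside the glucocorticoid-induced genes, and apart from Aqp4 in the VMH none of the glial, neuronal, vascular, blood or choroid plexus markers passed. Median changes in the ARC, VMH, DMH and PVN were -0.20, -0.05, -0.04 and 0.03 for neurons, 0.02, -0.10, -0.06 and -0.07 for astrocytes, and -0.03, -0.08, 0.07 and -0.11 for oligodendrocytes. They were -0.04, -0.06, -0.08 and -0.17 for microglia, 0.01, -0.24, 0.05 and -0.15 for endothelial cells and pericytes, and 0.02, -0.12, -0.03 and -0.24 for tanycytes and ependymal cells. For blood they were 0.07, 0.12, -0.17 and 0.11, and for 4 tested choroid plexus genes 0.05, -0.14, -0.17 and -0.02. Among the markers of the nuclei themselves, Agrp, the peptide of hunger neurons, rose in the ARC and Ppp1r17 rose in the PVN.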
